A study of Mus musculus with 6 samples.

Results

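The antioxidant genes described here are 44 genes of the Nrf2, glutathione and peroxide-removing systems, compared between the mouse malignant mesothelioma lines AC29 and AB1. They were taken by gene symbol from the array's annotation: a gene counted as measured where at least 1 probe set carried its symbol alone, and its brightest probe set, by the mean of all 6 arrays, stood for it. This gave 40 of the 44 genes, out of 18193 genes measured in all. Prdx1, Prdx5, Prdx6 and G6pdx had no probe set of this kind; the 5 probe sets that name Prdx1 name a second gene too.

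AC29 is a malignant mesothelioma line from a female CBA mouse, used at passage 60, and AB1 is one from a female BALB/c mouse, used at passage 40; the labels give an age of 6 to 8 weeks for both. The labels give no drug or other agent, and both lines grew in RPMI medium with foetal calf serum to 80% confluency. Each line was sampled from 3 flasks, with RNA of each flask on an Affymetrix array of its own, so that p-values measure only the spread between flasks. Each group is a single established line, and line, strain, passage and any processing batch cannot be told apart. Values are log2 intensities, and the submitters' processing notes name RMA, a method that corrects background, normalizes arrays to a common distribution and summarises the probes of a set.

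Nrf2, the product of Nfe2l2, is a transcription factor that switches on detoxifying and antioxidant genes. In unstressed cells the adaptor Keap1 holds it for degradation, and electrophiles or oxidants that modify Keap1 release it. Its targets make glutathione, couple glutathione to electrophiles, remove peroxides together with the peroxiredoxins and glutathione peroxidases, and regenerate the NADPH that keeps these enzymes reduced. Mesothelioma arises in the lining of the body cavities, classically after exposure to asbestos, whose fibres generate oxidants in tissue.

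Nrf2 binds as a dimer with small Maf proteins to the antioxidant response element, whose core can be written TGACNNNGC. The 250 bases before the annotated start are shown for 2 glutathione transferase genes that were higher in AC29 (Mgst1 and Gstm5), for Gclm and Nfe2l2, and for the 2 genes that were lower in AC29 (Gpx7 and Gsto1). Sequences are from RefSeq, build GRCm38.p6, and read 5′ to 3′ on the strand of the gene. Capitals mark a match to the core, read as its reverse complement in Mgst1 and Gclm. Mgst1 and Gstm5 were picked because their windows hold a match. Gstt1, Mgst2 and Me1, also higher in AC29, had windows without a match and are not shown. Gclm and Nfe2l2, called in neither direction, also hold a match, as did only 5 of 27 such genes with a window. The windows shown are thus not a sample of the genes, and their matches cannot be set against direction.

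Mgst1 (chr6:138140277-138140526, + strand): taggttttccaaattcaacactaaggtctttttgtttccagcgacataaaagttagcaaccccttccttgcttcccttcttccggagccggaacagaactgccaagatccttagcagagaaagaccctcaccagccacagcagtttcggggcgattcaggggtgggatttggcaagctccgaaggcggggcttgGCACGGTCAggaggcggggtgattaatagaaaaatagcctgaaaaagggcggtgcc

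Gstm5 (chr3:107895604-107895853, + strand): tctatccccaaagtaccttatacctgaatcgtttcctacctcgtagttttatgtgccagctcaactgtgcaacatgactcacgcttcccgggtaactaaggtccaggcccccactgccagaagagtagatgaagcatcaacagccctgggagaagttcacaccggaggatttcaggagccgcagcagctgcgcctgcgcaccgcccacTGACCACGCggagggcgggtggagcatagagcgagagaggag

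Gclm (chr3:122245307-122245556, + strand): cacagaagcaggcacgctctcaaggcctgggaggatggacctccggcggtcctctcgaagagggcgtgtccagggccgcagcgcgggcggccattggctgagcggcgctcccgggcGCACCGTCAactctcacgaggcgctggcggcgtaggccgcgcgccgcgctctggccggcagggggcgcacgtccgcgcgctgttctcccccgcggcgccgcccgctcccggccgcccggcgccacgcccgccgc

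Nfe2l2 (chr2:75704664-75704913, - strand): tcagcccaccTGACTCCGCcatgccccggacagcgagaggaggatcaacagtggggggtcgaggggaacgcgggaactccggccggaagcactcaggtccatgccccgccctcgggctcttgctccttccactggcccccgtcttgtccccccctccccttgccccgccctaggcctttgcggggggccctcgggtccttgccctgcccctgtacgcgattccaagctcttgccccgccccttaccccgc

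Gpx7 (chr4:108406714-108406963, - strand): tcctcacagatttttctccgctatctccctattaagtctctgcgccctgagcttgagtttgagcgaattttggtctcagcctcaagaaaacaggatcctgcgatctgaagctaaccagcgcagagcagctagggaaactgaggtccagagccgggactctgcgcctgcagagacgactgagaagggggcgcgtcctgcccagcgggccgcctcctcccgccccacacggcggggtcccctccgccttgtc

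Gsto1 (chr19:47854723-47854972, + strand): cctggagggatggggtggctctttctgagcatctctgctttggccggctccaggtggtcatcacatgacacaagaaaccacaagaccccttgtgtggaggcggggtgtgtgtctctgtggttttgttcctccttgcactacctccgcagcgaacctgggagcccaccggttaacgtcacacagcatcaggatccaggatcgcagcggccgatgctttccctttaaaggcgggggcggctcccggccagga

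Of 44 genes, 37 had such a window in the table, and Hmox1, Gclc, Gsr, Gsta4, Gstt2, Prdx6 and Sod3 were not found in it. The core was searched on both strands. It occurred before at least 1 start in 9 of the 37 genes (24.3%), and in 3112 of 27025 genes of the table (11.5%). A match is a run of letters and not a measured binding site. Of genes higher in AC29, 2 of 5 held a match, of genes lower in AC29, 0 of 2, and of measured genes that passed in neither direction, 5 of 27. Mgst1 had its match 56 bases before the first of its 2 annotated starts and Gstm5 42 bases before its only start.

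Calls required both an adjusted p below 0.05 in limma and a difference of at least 2-fold, a log2 difference of 1. By this rule 8 antioxidant genes were higher in AC29, 2 were lower in AC29 and 30 did not pass. Over all genes tested 10.9% were called, 5.12% as higher and 5.82% as lower in AC29, and 16.5% were called among genes with at least 3 arrays above background. The called share of the antioxidant genes was 25% (10 of 40). The largest differences lay in enzymes that couple glutathione to other molecules: Gsta4 and Mgst1 were at least 102-fold and at least 101-fold higher in AC29 than in AB1, where they were not above background. The glutathione synthesis genes Gclc, Gclm and Gss had an adjusted p under 0.05 in limma but stayed under 2-fold, as did the Nrf2 target Txnrd1. Of the other stress-inducible Nrf2 targets, Hmox1 was 2.48-fold higher in AC29, and Nqo1 and Srxn1 did not pass.

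A floor of 6.07 marks background; it is the 95th percentile of 87 probe sets for olfactory, vomeronasal and taste receptors, whose genes are not expected to be expressed here. Of the 40 genes, 33 were above it on every array, 3 were not above it on any AC29 array and 5 not on any AB1 array, which includes Gstt2 and Gstk1 in both lines. For 31 of the 40 genes, or 77.5%, every array of one line lay above every array of the other, against 50.1% of all genes. The median difference of the 40 genes, AC29 minus AB1, was 0.16 on the log2 scale, with -0.0047 over all genes. The median size of the difference without its sign was 0.54 for the 40 genes and 0.20 for all genes. Of all 18193 genes, 6524 were not above the floor on any array, beside 2 of the 40. The share without overlap and the medians were not computed for the remaining genes alone.

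**Figure D1:**
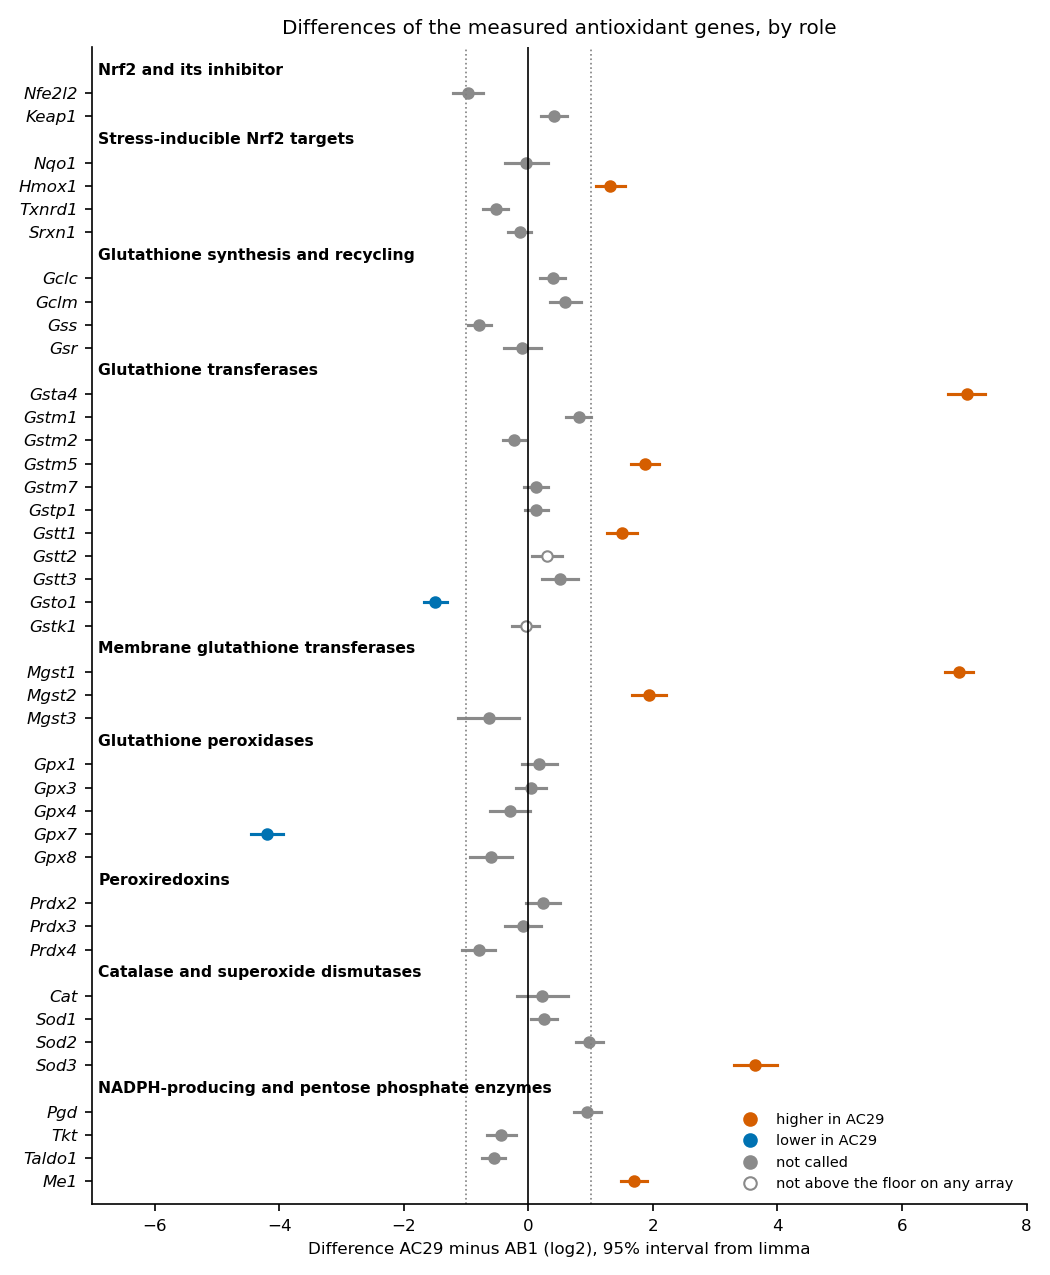
Log2 difference, AC29 minus AB1, of each of the 40 measured antioxidant genes, with its 95% interval from limma, grouped by role. Orange marks the 8 genes called higher in AC29, blue the 2 called lower and grey the 30 that did not pass; open circles mark Gstt2 and Gstk1, which were not above the floor on any array, and dotted lines mark a 2-fold difference. Values are fitted differences, also for Gsta4, Mgst1, Sod3 and Gpx7, whose folds are given as bounds in the text.

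Across all genes Pearson's r was between 0.995 and 0.997 among AC29 arrays and between 0.997 and 0.998 among AB1 arrays, and no 2 arrays were identical. Of 12 mesothelial markers, 10 were higher in AC29 and 7 were not above the floor in AB1; mesothelin (Msln) read 10.41 ± 0.23 in AC29 and 9.67 ± 0.10 in AB1 (SD, n = 3 each). The leukocyte and endothelial markers Ptprc, Adgre1, Cd3g, Pecam1 and Cdh5 were among those not above the floor on any array. Cd3e, Cd4, Cd8a, Csf1r and Kdr read above it on all arrays in both lines and did not pass. Cd68 (-0.65) and Lyz2 (0.48) had an adjusted p under 0.05 in limma but stayed under 2-fold, at levels near the floor. Of 8 macrophage markers, 4 were below it throughout and 1, the receptor Cd14, was lower in AC29 (7.26 ± 0.07 against 9.02 ± 0.08). The log2 of the summed intensities of these 8 ran from 8.78 to 8.92 in AC29 and from 9.67 to 9.76 in AB1. For 7 lymphocyte markers, of which 4 were under the floor throughout, this log2 sum ran from 8.68 to 8.82 in AC29 and from 8.59 to 8.69 in AB1. For 7 endothelial markers, 6 of them under the floor, it ran from 7.92 to 8.00 in AC29 and from 8.03 to 8.07 in AB1. Of 8 fibroblast and mesenchymal markers, Col1a1 was higher in AC29 (a log2 difference of 1.69), and Acta2 (-6.70) and Pdgfrb (at least 8.26-fold, AC29 being under the floor) were lower. The log2 of their summed intensities, over all 8, ran from 15.04 to 15.33 in AC29 and from 15.35 to 15.37 in AB1. The part of these marker differences in the results below was not tested. In such bulk samples, fewer cells with a transcript and less of it per cell cannot be told apart.

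Nfe2l2 itself was lower in AC29 by an amount just short of 2-fold. It read 10.34, 10 and 10.32 in the AC29 flasks, against 11.15, 11.20 and 11.21 in the AB1 flasks. All AC29 arrays lay below all AB1 arrays. The difference was -0.97 ± 0.11 (SE) on the log2 scale (limma adjusted p = 7.09e-05), which did not pass the 2-fold minimum. It passed without AC29 replicate 13 (-1.03) or without AC29 replicate 15 (-1.02). The second probe set for Nfe2l2, near the floor at 6.39 in AC29 and 5.75 in AB1, differed the other way, by 0.64. On the mean of both probe sets the difference was -0.16 (limma adjusted p = 0.0809). Keap1, the inhibitor, averaged 9.14 ± 0.15 in AC29 and 8.73 ± 0.03 in AB1 (SD, n = 3 each), a difference of 0.41 (limma adjusted p = 0.00693) that is under 2-fold. Its other probe set differed by 0.45.

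Among the stress-inducible targets, Hmox1 was higher in AC29 and the other members of the group did not pass. Hmox1 encodes heme oxygenase, which breaks down heme. It read 9.98, 10.23 and 10.32 in the AC29 flasks, against 8.89, 8.81 and 8.88 in the AB1 flasks. The lines did not overlap, and the difference of 1.31 ± 0.10 (SE) is 2.48-fold (limma adjusted p = 7.81e-06). When limma tested against a 2-fold difference in place of 0, Hmox1 did not pass (adjusted p = 0.0992). Nqo1, a quinone reductase widely used as a readout of Nrf2, overlapped between the lines at 9.89 ± 0.22 in AC29 and 9.93 ± 0.27 in AB1 (SD, n = 3 each). The 95% interval of its difference ran from -0.38 to 0.31, so a 2-fold difference in either direction lay outside it. Txnrd1, which reduces thioredoxin in the cytosol, read 11.74 ± 0.11 and 12.26 ± 0.05 in AC29 and AB1, a difference of -0.52 (limma adjusted p = 0.00115) that its 2 other probe sets gave as -0.56 and -0.59. Srxn1, sulfiredoxin, which repairs overoxidized peroxiredoxins, had an interval from -0.32 to 0.05.

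The 4 genes that make and recycle glutathione all stayed under 2-fold, and not in a single direction. Gclc and Gclm encode the catalytic and modifier subunits of glutamate-cysteine ligase, the rate-limiting enzyme of glutathione synthesis. They differed by 0.39 ± 0.09 (SE, limma adjusted p = 0.00594) and 0.60 ± 0.11 (SE, limma adjusted p = 0.00212), both toward AC29. Gclm read 11.12, 11.41 and 11.41 in the AC29 flasks, against 10.82, 10.58 and 10.76 in the AB1 flasks. Gss, glutathione synthetase, which completes the molecule, lay toward AB1 at 8.88 ± 0.03 in AC29 and 9.67 ± 0.06 in AB1 (SD, n = 3 each), a difference of -0.78. Each of these genes had a second probe set, at 0.38 for Gclc, 0.87 for Gclm and -0.73 for Gss. Gsr, the reductase that returns oxidized glutathione to its working form, overlapped between the lines, with an interval from -0.39 to 0.20.

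The glutathione transferases held the widest differences. Of 11 soluble transferases, 3 were higher in AC29, 1 was lower and 7 did not pass. Gsta4, an alpha-class enzyme known for clearing hydroxynonenal and other aldehydes from lipid peroxidation, read 12.63, 12.86 and 12.73 in the AC29 flasks, against 5.44, 5.73 and 5.94 in the AB1 flasks. The AB1 arrays all lay under the floor, so that the fold is a bound: Gsta4 was at least 102-fold higher in AC29 (limma adjusted p = 7.29e-10). The bound depends on the floor: set at the receptors' 99th percentile, it gave at least 46.9-fold. With the floor at the 90th percentile (5.68), 2 AB1 arrays lay above it, and the measured fold was 131. Gsta4 had no other probe set to check it. Gsta3, an alpha-class relative outside the 44 genes, also passed, at least 11.2-fold higher in AC29. Its other probe set gave a smaller log2 difference, 1.90 against 5.48, and passed too.

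Gstm5, a mu-class transferase, read 9.99, 9.90 and 9.81 in the AC29 flasks, against 8.01, 8.18 and 7.88 in the AB1 flasks. This is 3.66-fold (limma adjusted p = 6.66e-07). Gstt1, a theta-class transferase, read 8.22, 8.21 and 8.13 in the AC29 flasks, against 6.61, 6.54 and 6.90 in the AB1 flasks, or 2.84-fold (limma adjusted p = 3.97e-06). Gsto1, an omega-class enzyme that reduces dehydroascorbate and protein thiols more than it conjugates, went the other way. It read 10.91, 11.08 and 10.997 in the AC29 flasks, against 12.45, 12.49 and 12.51 in the AB1 flasks, and was 2.81-fold lower in AC29 (limma adjusted p = 8.07e-07). Its second probe set differed by -1.64. No array of one line overlapped the other line for any of these genes.

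Gstp1, the pi-class transferase often abundant in tumour cells, was bright in both lines at 13.46 ± 0.05 in AC29 and 13.32 ± 0.02 in AB1 (SD, n = 3 each), with an interval of the difference from -0.05 to 0.31. Gstm1 read 9.83 ± 0.11 and 9.02 ± 0.03 in AC29 and AB1, a difference of 0.81 that did not reach 2-fold, and its 3 other probe sets differed by 0.82, 0.69 and 0.42. Its brightest probe set carries the suffix _x_at, which marks probes shared with other transcripts, so there signal from related mu-class genes was not separated. The probe sets that gave 0.82 and 0.42 do not carry this suffix. Gstm2 differed by -0.24, Gstm7 by 0.12 and Gstt3 by 0.52. Gstt2 and Gstk1 were not above the floor on any array, and no fold is given for them.

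Neighbouring transferase genes differed between the lines by unlike amounts, and in the mu cluster also in unlike directions. In the RefSeq table (GRCm38.p6) the mu-class genes lie in the order Gstm5, Gstm7, Gstm6, Gstm3, Gstm2, Gstm1 and Gstm4. Their differences in that order were 1.87, 0.12, 0.24, 0.31, -0.24, 0.81 and -0.82, with Gstm6 not above the floor on any array and Gstm4 not on any AC29 array. In the theta cluster Gstt1 was called while its neighbour Gstt3 differed by 0.52 (limma adjusted p = 0.0102) and stayed under 2-fold. The omega genes Gsto1 and Gsto2 lie side by side; Gsto2 differed by -0.89 at levels near or under the floor. The difference between neighbouring genes was not tested.

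**Figure D2:**
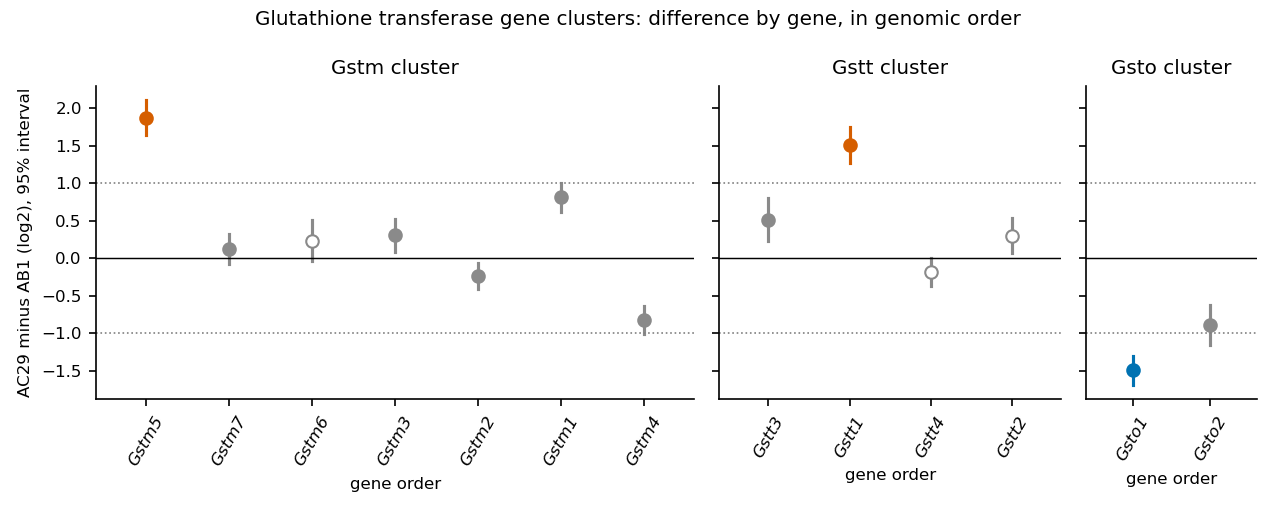
Log2 difference, AC29 minus AB1, with 95% interval, of each gene of the mu (Gstm), theta (Gstt) and omega (Gsto) transferase clusters, in genomic order along the horizontal axis without distances. Gstm5 (1.87) and Gstt1 (1.51) are called higher in AC29 and Gsto1 (-1.49) lower; open circles are genes not above the floor on any array, and dotted lines mark a 2-fold difference.

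Of the 3 membrane-bound transferases, Mgst1 and Mgst2 were higher in AC29. Mgst1, an enzyme of the endoplasmic reticulum and outer mitochondrial membrane with transferase and peroxidase activity, read 12.81, 12.84 and 12.54 in the AC29 flasks, against 5.78, 5.86 and 5.81 in the AB1 flasks. AB1 was under the floor on all its arrays, and Mgst1 was at least 101-fold higher in AC29 (limma adjusted p = 2.36e-10), or at least 46.5-fold against the 99th percentile floor. All AB1 arrays lay above the 90th percentile floor, where the measured fold was 121. A second probe set for Mgst1 was under the floor on all 6 arrays, at 3.51 in AC29 and 3.56 in AB1, and showed no difference beyond its error (-0.06 ± 0.09, SE). The mean of both probe sets passed, at 3.43 on the log2 scale. Mgst2, whose enzyme can make leukotriene C and reduce lipid peroxides, read 10.56, 10.86 and 10.41 in the AC29 flasks, against 8.69, 8.72 and 8.61 in the AB1 flasks, or 3.83-fold (limma adjusted p = 1.56e-06). Mgst3 overlapped between the lines. It read 8.60, 9.52 and 8.91 in the AC29 flasks, against 9.82, 9.37 and 9.76 in the AB1 flasks, a difference of -0.64 ± 0.22 (SE, limma adjusted p = 0.0439).

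**Figure D3:**
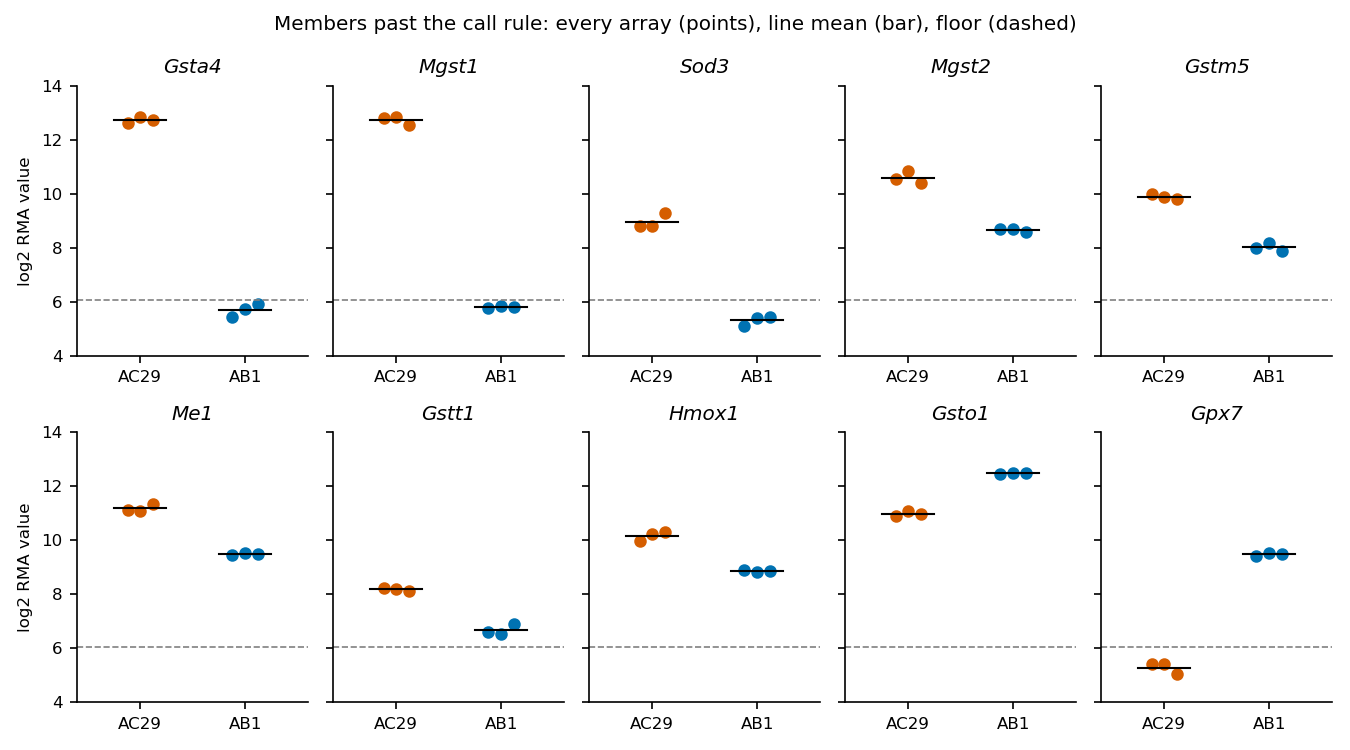
Log2 RMA value on every array (points) for the 10 called antioxidant genes, AC29 left of AB1, with the mean of each line as a bar and the floor of 6.07 as a dashed line. Gsta4, Mgst1 and Sod3 lie under the floor in AB1 and Gpx7 in AC29; no gene shows overlap between the lines.

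Of the 5 glutathione peroxidases, Gpx7 was lower in AC29 and 4 did not pass. Gpx7 is a peroxidase of the endoplasmic reticulum, where it passes peroxide oxidation on to protein disulfide formation. It read 5.42, 5.40 and 5.04 in the AC29 flasks, against 9.42, 9.52 and 9.51 in the AB1 flasks. AC29 was under the floor on all its arrays, so that Gpx7 was at least 10.7-fold lower in AC29 (limma adjusted p = 7.44e-09), or at least 4.89-fold against the 99th percentile floor. Gpx8, the other member of this compartment, read 10.75 ± 0.31 in AC29 and 11.36 ± 0.10 in AB1 (SD, n = 3 each), a difference of -0.60 (limma adjusted p = 0.00951). Gpx1, the general cytosolic and mitochondrial peroxidase, and Gpx4, which reduces phospholipid peroxides and guards against ferroptosis, were bright in both lines. Their differences were 0.18 ± 0.13 and -0.29 ± 0.14 (SE), with overlapping arrays. Gpx3, the secreted form, read 6.13 in AC29 and 6.09 in AB1, near the floor.

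The 3 measured peroxiredoxins did not pass. Prdx4, the peroxiredoxin of the endoplasmic reticulum, read 10.92, 11.33 and 10.95 in the AC29 flasks, against 11.87, 11.88 and 11.83 in the AB1 flasks. The lines did not overlap, and the difference of -0.79 (limma adjusted p = 0.000475) is 1.73-fold. Its other probe sets differed by -0.74, -0.56 and 0.23, the last of them near the floor. The cytosolic Prdx2 differed by 0.24 and the mitochondrial Prdx3 by -0.09, with intervals from -0.03 to 0.51 and from -0.37 to 0.20. A dimmer probe set for Prdx2 differed by 0.94 and did not pass.

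Superoxide dismutases convert superoxide to hydrogen peroxide, which catalase removes. Sod3, the extracellular form that binds to matrix, read 8.80, 8.82 and 9.30 in the AC29 flasks, against 5.12, 5.40 and 5.45 in the AB1 flasks. AB1 was under the floor, and Sod3 was at least 7.51-fold higher in AC29 (limma adjusted p = 9.19e-08), or at least 3.44-fold against the 99th percentile floor. Its second probe set differed by 2.81. Sod2, the mitochondrial form, read 11.32, 11.20 and 11.49 in the AC29 flasks, against 10.37, 10.35 and 10.36 in the AB1 flasks. The lines did not overlap, and the difference of 0.98 ± 0.09 (SE, limma adjusted p = 3.16e-05) stopped short of 2-fold. It passed without AC29 replicate 14 (1.05) and by its second brightest probe set (1.02 ± 0.11, SE).

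Sod1, the cytosolic form, differed by 0.25 ± 0.09 (SE, limma adjusted p = 0.0514), and its 4 other probe sets ranged from 0.02 to 1.40. The widest of these passed the rule but was dim and variable, at 6.73 ± 0.84 in AC29 and 5.32 ± 0.14 in AB1 (SD, n = 3 each). Cat, catalase, read 10.46, 9.60 and 10.05 in the AC29 flasks, against 9.83, 9.84 and 9.76 in the AB1 flasks. The AC29 flasks lay on both sides of AB1, and the difference was 0.23 ± 0.18 (SE, limma adjusted p = 0.394).

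Among the measured NADPH-producing and pentose phosphate enzymes, those that make NADPH, Me1 and Pgd, lay toward AC29. Me1, cytosolic malic enzyme, which makes NADPH from malate, read 11.15, 11.10 and 11.37 in the AC29 flasks, against 9.47, 9.54 and 9.50 in the AB1 flasks. It was 3.24-fold higher in AC29 (limma adjusted p = 7.92e-07), and its other probe set differed by 1.96. Pgd, the NADPH-producing dehydrogenase of the pentose phosphate pathway, read 12.98, 12.69 and 12.90 in the AC29 flasks, against 11.85, 11.96 and 11.90 in the AB1 flasks. The lines did not overlap, and its difference of 0.95 ± 0.10 (SE, limma adjusted p = 4.55e-05) was under 2-fold. Pgd passed without AC29 replicate 14 (1.03), with array weights (1.005) and by 1 of its 3 other probe sets (1.15). Its brightest probe set carries the suffix _x_at, as for Gstm1, and the other probe set that passed does not. Tkt and Taldo1, transketolase and transaldolase of the non-oxidative branch, lay toward AB1 at -0.44 ± 0.10 and -0.56 ± 0.08 (SE, limma adjusted p = 0.00829 and 0.000417).

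Without the 2-fold minimum, 27 of the 40 genes had an adjusted p under 0.05, 16 toward AC29 and 11 toward AB1, where the share over all genes was 39.1%. All genes here include the 6524 not above the floor on any array. Of the genes that did not reach 2-fold, Sod2 (0.98), Nfe2l2 (-0.97) and Pgd (0.95) came closest to it, and of the called genes Hmox1 (1.31). Among 33 other probe sets with at least 1 array above the floor, from 20 of the genes, 30 had the sign of the brightest probe set and 3 the opposite sign. The 3 that belong to called genes (Gsto1, Sod3 and Me1) all passed in the direction of the call.

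**Figure D4:**
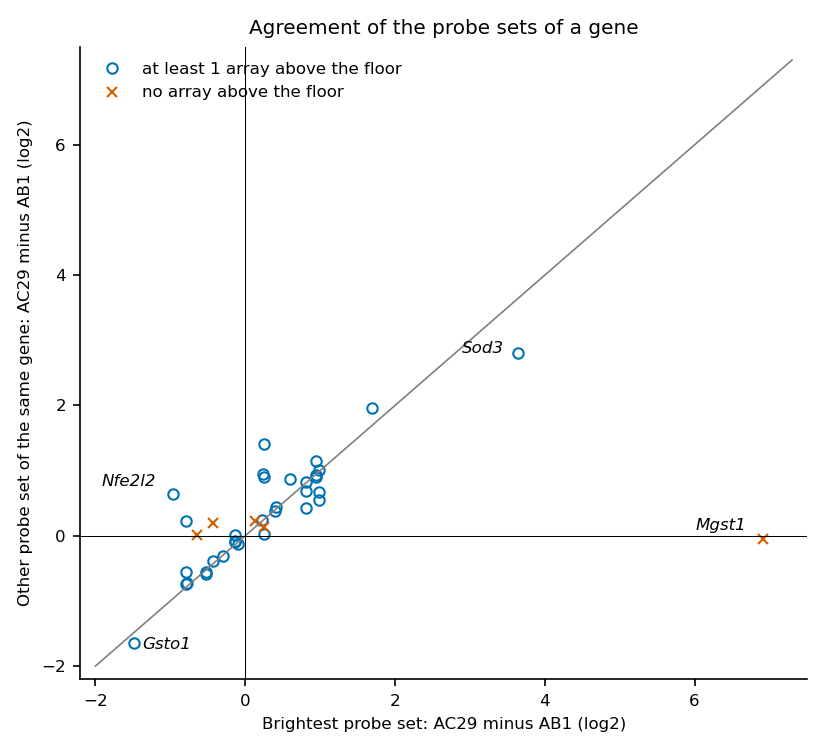
Log2 difference, AC29 minus AB1, of the 38 other probe sets of the antioxidant genes (vertical) against that of the brightest probe set of the same gene (horizontal), with the line of equality. Crosses are the 5 probe sets with no array above the floor, among them the second one for Mgst1 (-0.06 against 6.91); the second probe set for Nfe2l2 (0.64 against -0.97) lies opposite its brightest one.

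The flasks of AC29 spread more than those of AB1 for these genes. The SD over 3 arrays was higher in AC29 for 34 of the 40 genes, with a median of 0.16 in AC29 and 0.05 in AB1. Over all genes the SD was higher in AC29 for 62.5%, with medians of 0.12 and 0.09 in AC29 and AB1. The widest were Mgst3 (0.47), Cat (0.43), Gpx8 (0.31) and Gpx4 (0.30). In each of them AC29 replicate 14 stood at an end: it was the highest flask for Mgst3, Gpx8 and Gpx4 and the lowest for Cat. Over all 40 genes, replicate 14 was the lowest or highest for 29, replicate 13 for 24 and replicate 15 for 27. The array of replicate 14 lay apart on the second principal component of all genes (2.86% of the variance) and had the lowest array weight of the 6, 0.449. Its part in these spreads was not tested. Without it the called genes among the 40 were 10 higher in AC29, with Sod2 and Pgd added, and 2 lower.

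Of 14 genes for partners and turnover, 1 was higher in AC29 and none was lower by the rule in limma, though Nfe2l1, Maff, Mafk and Palb2 had an adjusted p under 0.05 toward AB1 and Dpp3, which encodes a Keap1-binding peptidase, toward AC29 (0.77). The called gene was Nfe2l3, a relative of Nrf2, which read 6.29, 6.20 and 6.28 in the AC29 flasks, barely above the floor, against 4.60, 4.10 and 4.03 in the AB1 flasks. That is at least 1.14-fold, and its other probe sets differed by 0.94 and 0.35. Sqstm1, which encodes the Keap1-binding autophagy receptor p62, read 12.51 ± 0.14 in AC29 and 12.61 ± 0.07 in AB1 (SD, n = 3 each). Cul3, the scaffold of the Keap1 ubiquitin ligase, differed by -0.11 ± 0.08 (SE) by its brightest probe set and by 0.36 on the mean of its probe sets. 

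Of 28 other Nrf2 target genes measured, 5 were higher in AC29 and 1 was lower. Aldh1a1, a retinaldehyde and aldehyde dehydrogenase, read 10.36 ± 0.17 in AC29 and 4.07 ± 0.22 in AB1 (SD, n = 3 each), at least 19.6-fold. The carbonyl reductases Cbr1 (2.63-fold) and Cbr3 (2.65-fold) were higher in AC29, as were the iron exporter Slc40a1 (at least 2.06-fold) and the carboxylesterase Ces2g (at least 2.29-fold). Aldh3a1, counted as lower in AC29, lay under the floor on all 6 arrays and did not pass without AC29 replicate 13 (-0.96). Slc7a11, the cystine transporter that feeds glutathione synthesis, differed by -0.46 (limma adjusted p = 0.00249), under 2-fold. The brightest genes that did not pass were Fth1, ferritin heavy chain, at 14.42 in AC29 and 14.23 in AB1, and the aldehyde reductase Akr1a1 at 13.77 and 13.59 in AC29 and AB1.

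Among 14 other transferases and related proteins, Gsta3 was higher in AC29 and Ptges was lower. Gsta3 read 9.54 ± 0.16 in AC29 and 4.07 ± 0.12 in AB1 (SD, n = 3 each). Ptges, the glutathione-dependent prostaglandin E synthase related to Mgst1, read 6.24 ± 0.06 in AC29 and 9.97 ± 0.24 in AB1, or 13.2-fold lower in AC29 (limma adjusted p = 2.19e-08). Its other probe sets gave smaller log2 differences, -2.60 and -2.19 against -3.73, and passed too. Mgst1 and Ptges thus lay on opposite sides of the comparison. The chloride channel proteins Clic1 and Clic4, which share the transferase fold, differed by -0.57 and -0.36.

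Genes that supply cysteine and break down glutathione went both ways, with 3 of 17 higher in AC29 and 3 lower. Chac1 and Chac2 both cleave glutathione. Chac1 read 7.98, 7.93 and 8.09 in the AC29 flasks, against 11.60, 11.54 and 11.49 in the AB1 flasks, and was 11.7-fold lower in AC29 (limma adjusted p = 3.22e-09). Chac2 read 10.36, 10.53 and 10.001 in the AC29 flasks, against 8.97, 9.16 and 8.98 in the AB1 flasks, and was 2.39-fold higher in AC29 (limma adjusted p = 6.45e-05). Cth, cystathionine gamma-lyase, which makes cysteine from cystathionine, read 9.26 ± 0.09 in AC29 and 12.58 ± 0.04 in AB1 (SD, n = 3 each), or 9.94-fold lower in AC29 (limma adjusted p = 5.13e-09).

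The glutamine transporter Slc1a5 was 3.50-fold lower in AC29, and its dimmer second probe set did not pass (-0.46). Glo1, glyoxalase, which uses glutathione to clear methylglyoxal, was 2.84-fold higher in AC29 (limma adjusted p = 1.17e-06; 1 dimmer probe set differed by 0.64 and did not pass), and Oplah, which recycles oxoproline from glutathione breakdown, 2.77-fold. The brightest genes that did not pass were Glud1 (-0.66) and Lap3 (0.72).

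Of 21 thioredoxin, glutaredoxin and methionine sulfoxide reductase genes, 1 was higher in AC29 and 4 were lower. The methionine sulfoxide reductases Msra (2.94-fold) and Msrb3 (3.26-fold), which repair oxidized methionine, were lower in AC29, as were the glutaredoxin Glrx (3.05-fold) and Txndc12 (2.07-fold), a thioredoxin-like protein of the endoplasmic reticulum. Txndc12 did not pass without AC29 replicate 15 (-0.99). Nxn, nucleoredoxin, was 3.13-fold higher in AC29 (limma adjusted p = 5.91e-07). Txn1, the main cytosolic thioredoxin, read 14.01 ± 0.03 in AC29 and 13.92 ± 0.01 in AB1 (SD, n = 3 each), and Txnl1 differed by 0.17.

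Of 16 other sources of NADPH and its precursors, 1 was higher in AC29 and 3 were lower. The mitochondrial folate enzymes Mthfd2 (2.34-fold) and Aldh1l2 (2.68-fold) and the pentose phosphate lactonase Pgls (2.48-fold) were lower in AC29, and H6pd, the glucose phosphate dehydrogenase of the endoplasmic reticulum, was 2.28-fold higher. Nadk, which makes NADP, differed by 0.81, and Idh1 by 0.41. The list of oxidant producers had 16 measured genes, among them Ccs, the copper chaperone of Sod1, which is not a producer and was not called. On this list Maoa, a mitochondrial monoamine oxidase that releases hydrogen peroxide, was 3.88-fold higher in AC29 (a log2 difference of 1.96, or 2.87 by its other probe set). Ero1a, the oxidase of protein folding, was 2.92-fold lower. The NADPH oxidase genes Nox4 and Cybb lay under the floor on all 6 arrays, while their membrane partner Cyba read 9.20 ± 0.37 in AC29 and 9.33 ± 0.12 in AB1 (SD, n = 3 each). Rac1 differed by 0.29. Together the 7 lists held 126 measured genes, of which 13 were higher in AC29, 13 lower and 100 not called. The called share was 20.6%, beside 10.9% over all genes and 16.5% among genes with at least 3 arrays above the floor.

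**Figure D5:**
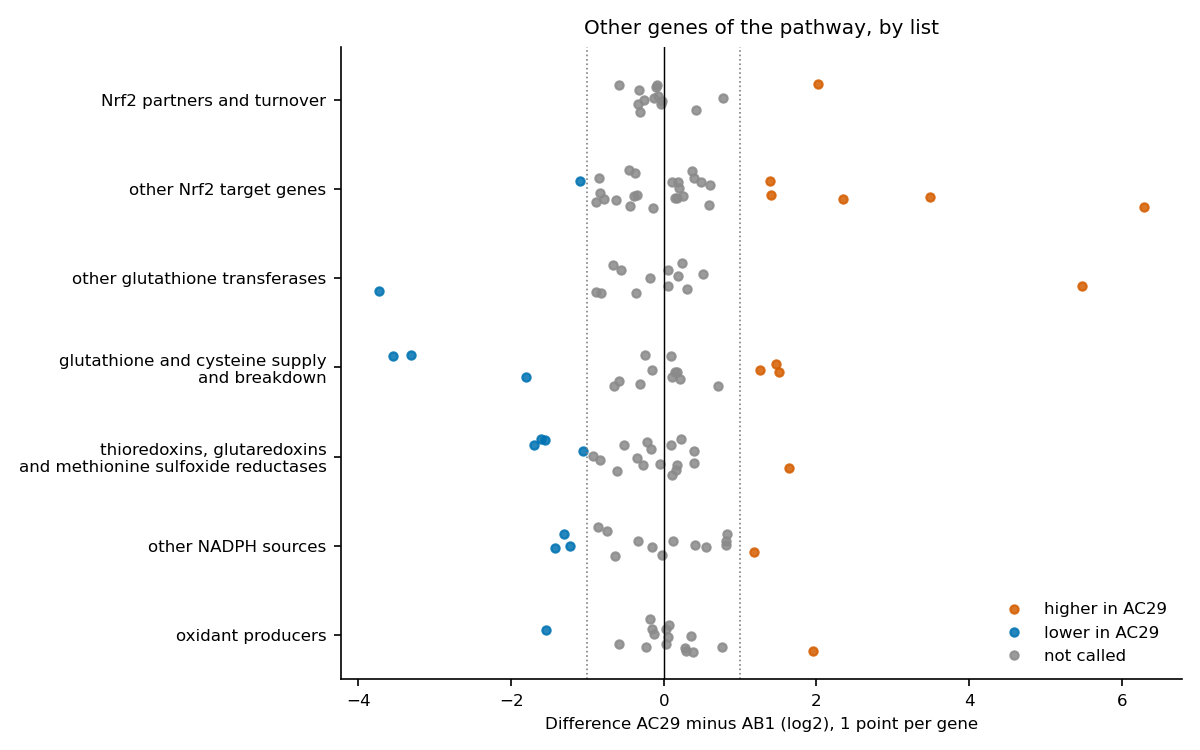
Log2 difference, AC29 minus AB1, of the 126 measured genes of 7 related lists, 1 point per gene, with vertical scatter only to separate points. Orange points are called higher in AC29 (13 genes), blue points lower (13 genes); dotted lines mark a 2-fold difference.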

How the data were processed

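Total RNA of 3 AC29 and 3 AB1 flasks was labelled from 5 ug and hybridised to 1 Affymetrix array each, per the labels' protocols. The deposited table holds log2 values of 45101 probe sets on each array. GCOS, RMA and Partek 6.4 appear in the submitters' processing notes without their roles, and the log2 scale was taken from the range of the values. RMA compresses dim and very bright signals, which can understate differences there. No depth applies to arrays; their number limits the precision. Scan batches were not analysed here.

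The 64 controls were left out. By the platform's annotation 34945 probe sets had 1 symbol, 932 several and 9160 none; all 40 measured members matched RefSeq by Entrez identifier. AC29 minus AB1 was fitted with limma 3.58.1 in R 4.3.3 (lmFit, eBayes, 2-sided), and p was adjusted by Benjamini-Hochberg over 18193 genes. The fitting code was run on simulated data with planted differences. Errors there were drawn independently, so this run checks the code and not the limits of these arrays. Folds against a line with no array above the floor use the floor and are written "at least".

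All members were named, with the called genes and the 2 brightest genes not called of each of 7 related lists. Members and lists were chosen with earlier results of these data known, so they lend no independent support. Slc7a11, Nox4, Cybb, Dpp3, Nfe2l1, Maff, Mafk, Palb2 and the relatives in the transferase clusters were added after their values were seen. So were Idh2, Nnt, Me2, Rpia and Ccs. The alternatives changed normalization, dim filter, probe set choice, model, threshold, floor and each array in turn; those for the related genes were added after the data were seen.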

Additional observations from a re-analysis of the deposited data

How the results depend on the processing

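The calls of Gsta4, Gstm5, Gstt1, Gsto1, Mgst2, Gpx7, Sod3 and Me1 held under every alternative run for them. Mgst1 lost its call by its second probe set (-0.0559), which has no array above the floor, and Hmox1 when tested against 2-fold, as did Cbr1, Chac2, Oplah, Mthfd2, H6pd, Aldh3a1 and Txndc12 among the related genes. Leaving out 1 array at a time gave 8 to 10 antioxidant genes higher in AC29 and 2 to 3 lower, 897 to 986 and 1024 to 1095 of all genes, and 13 and 12 to 14 of the related genes. With no 2-fold minimum the counts higher and lower in AC29 were 16 and 11 antioxidant genes, 32 and 44 related genes, and 3475 and 3630 of all genes. Testing against 2-fold gave 565 and 672 of all genes. Second brightest probe sets, which exist for 23 antioxidant genes, gave 3 and 1 of these, 5 and 7 of 63 related genes and 487 and 492 of 9010 genes, and a median antioxidant difference of 0.22; fewer genes were tested there. A floor at the 99th percentile left 4 antioxidant genes, and one at the 90th percentile 2, above background in neither line.

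Other probe sets turned the sign for Nfe2l2 (0.64), Srxn1 (0.0075), Mgst3 (0.0138), Prdx4 (0.23), Tkt (0.20), Sqstm1 (0.0043), Txnl1 (-0.0169), Rac1 (-0.13, also without shared probe sets) and Cul3 (0.66, 0.52, 0.21 and 0.52 by single probe sets, 0.36 on their mean); the cause was not tested. The ones that turned the sign for Mgst3 and Tkt had no array above the floor. Another probe set of Tkt, above the floor on all 6 arrays, gave -0.39. Averaging all probe sets per gene moved Nfe2l2 to -0.16, Mgst1 to 3.43, Gsta3 to 3.69 and Ptges to -2.84, and the other probe set of Slc40a1 gave 1.73 against 2.35. Leaving out 1 array turned the sign of differences within error for Nqo1 (-0.16 to 0.12), Gsr (-0.22 to 0.0083), Gstk1 (-0.0992 to 0.0438), Gpx3 (-0.0029 to 0.14) and Cyba (-0.33 to 0.0278). No paired analysis was possible because the lines share no replicate number.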
